A study of Mus musculus with 16 samples.

Results

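The 8 arrays of the HA line, mice bred for high swim stress-induced analgesia, were compared by their labels: 4 arrays labelled desipramine (DMI) against 4 labelled saline, numbered 1 to 4 in each group. They are 8 of the 16 arrays of the series, and the other 8 hold the LA line, bred for low analgesia. All mice were male Swiss-Webster, and the labels give an age of 15 weeks. DMI was injected at 7.5 mg/kg per day or saline was injected in its place, 21 times, and the hippocampus was taken 2 days after the last injection. By the study's methods each array holds hippocampal RNA of 3 mice, pooled, so that each group of 4 arrays covers 12 mice. The labels do not mention the pools, and on the saline-labelled arrays the treatment text names DMI while title and treatment field say saline.

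Desipramine is a tricyclic antidepressant that blocks the reuptake of noradrenaline, and noradrenergic fibres reach the hippocampus from the locus coeruleus. Hippocampal pyramidal and granule cells signal by glutamate, and their firing switches on immediate early genes within a short time. Bulk RNA of dissected hippocampus also holds transcripts of glia, vessels and meninges, and of thalamus or choroid plexus where these border the cut.

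The values are the log2 signals of the deposited value table, quantile normalized over the 16 arrays, for 25697 probes. A probe counts as detected where its signal stood above the negative controls of its array at a detection p under 0.05. On at least 4 of the 8 HA arrays this held for 13458 probes, and 9266 named genes had such a probe. The arrays of the HA line detected between 13250 and 13700 probes each, and correlated within their groups at 0.986 to 0.996 over detected probes. The median SD within a group was 0.102 in HA DMI and 0.0927 in HA saline. Nothing in the labels or headers gives a slide or scan, so that such batches cannot be told apart from the groups. Every difference below is DMI-labelled minus saline-labelled on the log2 scale, and its sign is opposite to the direction that the study gives for the drug. The study also reports qPCR on RNA of the individual mice that followed its own direction, with Crhbp and Npy among the genes measured. Which direction holds was not tested here. The arrays are therefore named by their labels.

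In the HA line 65 probes fell and 19 rose at an adjusted p under 0.05 (limma, Benjamini-Hochberg over all probes), without a limit on size. These 84 probes of 78 genes are 0.327% of the probes tested, with 0.253% lower and 0.0739% higher. Beyond a log2 difference of 0.5 lay 31 of them, 23 lower and 8 higher, which is 0.121% of the probes. The other 53, 42 lower and 11 higher, moved by less. The median size among the 84 was 0.431, where the median size over all detected probes was 0.065 and its 95th percentile 0.248. The values of the 4 DMI-labelled and 4 saline-labelled arrays did not overlap for any of the 84, as was so for 5.8% of all probes. The 84 were chosen by their p on these arrays, so lack of overlap is expected from the choice.

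The number of calls rested on every array. It was 20, 18, 26 and 49 without DMI-labelled array 1, 2, 3 or 4, and 13, 29, 10 and 25 without saline-labelled array 1, 2, 3 or 4. Of the 84 probes, 9 passed in each of these 8 fits and 33 in none, while all 84 kept their sign. With the arrays set to a common median in place of quantile normalization 4 probes passed, those of Tm9sf2, Mff and Nvl and a probe of Tcf7l2. With the background subtracted first, 41 passed and the split moved to 14 higher and 27 lower. Fewer cells of a type and less RNA per cell cannot be told apart in any of these values, since each array holds tissue RNA.

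**Figure D1:**
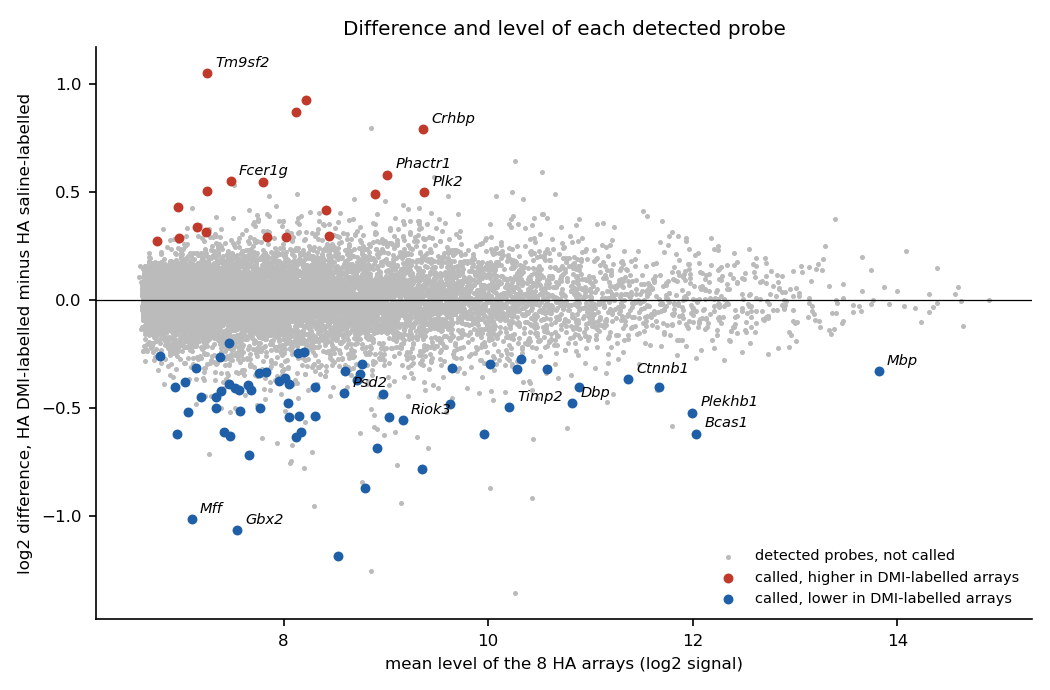
Log2 difference in HA (DMI-labelled minus saline-labelled, vertical) against the mean log2 signal of the 8 HA arrays (horizontal), for 13458 detected probes. The 19 probes that rose (red) and the 65 that fell (blue) at an adjusted p under 0.05 lie at all levels of signal, and the grey points did not pass.

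The 9 probes that passed whichever array was left out were those of Mff, Riok3, Arhgap24, Psd2, Fmo1, Bcas1, Phactr1 and Tm9sf2 and a probe of Slc7a14. Mff anchors the fission machinery on the outer membrane of mitochondria. Its probe read 6.68, 6.65, 6.51 and 6.54 on DMI-labelled arrays 1 to 4 and 7.82, 7.74, 7.53 and 7.36 on the saline-labelled arrays. It was detected on 1 of the 4 DMI-labelled and all 4 saline-labelled arrays, and fell by 1.02 ± 0.12 (SE, limma adjusted p = 0.00112). The fitted size depends on how signals near background are treated and was -2.22 after background subtraction, so that no exact fold is given. A second detected probe of Mff, brighter on the arrays, differed by -0.01 ± 0.08. In the LA line the called probe read higher than in either HA group, with means of 8.42 in LA DMI and 8.65 in LA saline.

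Riok3, a RIO-family kinase tied to the maturation of the small ribosomal subunit, read 8.97, 8.70, 8.97 and 8.90 on DMI-labelled and 9.52, 9.41, 9.53 and 9.31 on saline-labelled arrays. It fell by 0.56 ± 0.08 (SE, limma adjusted p = 0.00515), and its other detected probe differed by -0.01 ± 0.09. Nvl, a nucleolar ATPase of large subunit assembly, read 6.88 to 7.20 against 7.54 to 7.63 and fell by 0.50 ± 0.08 (limma adjusted p = 0.0177). Riok3 and Nvl were the 2 of 46 detected ribosome biogenesis genes that passed, beside 0.583% of all detected genes called lower. Of the 46, 24 were higher and 22 lower, with a median difference of 0.00701.

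Psd2, an exchange factor for the small GTPase Arf6, read 8.29 to 8.48 on DMI-labelled arrays and 8.76 to 8.85 on saline-labelled arrays, with no overlap. It fell by 0.43 ± 0.06 (SE, limma adjusted p = 0.0034). Fmo1, a flavin monooxygenase, read 7.11 to 7.21 against 7.51 to 7.76 and fell by 0.42 ± 0.06 (limma adjusted p = 0.00389). Arhgap24, which switches off Rac, read 7.68 to 7.87 against 8.23 to 8.39. Its adjusted p of 0.0005 (limma) was the smallest of the 84, at a difference of -0.54 ± 0.06.

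**Figure D2:**
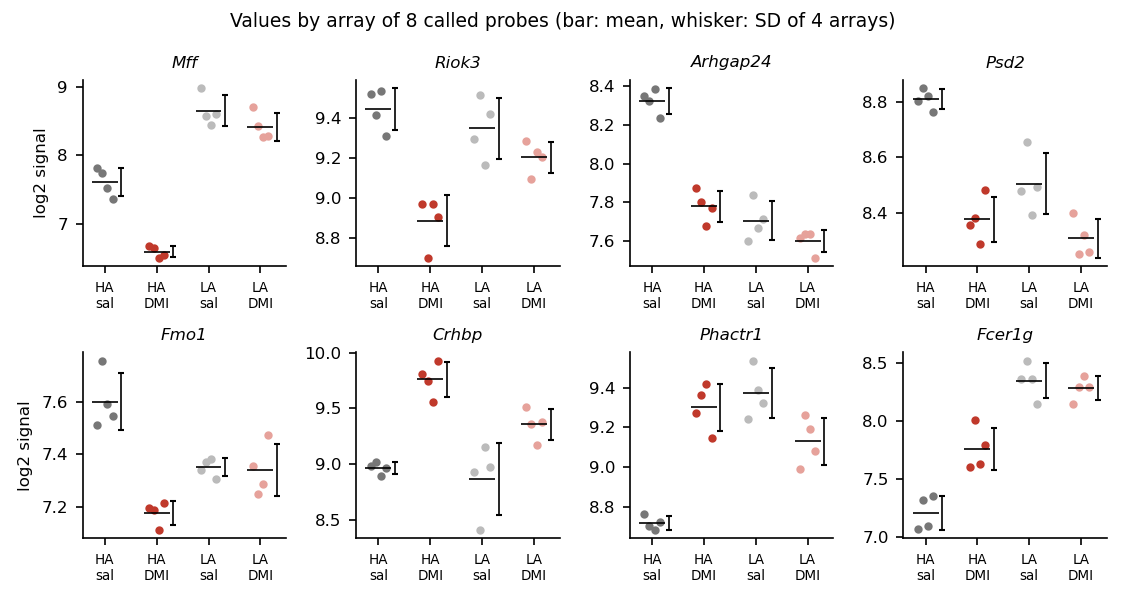
Log2 signal of each array in HA saline, HA DMI, LA saline and LA DMI for 8 called probes, with the mean of 4 arrays (bar) and its SD (whisker). The HA groups do not overlap in any panel. For Phactr1, Arhgap24, Psd2, Fmo1 and Fcer1g the HA saline arrays stand apart from all 12 others.

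Among the probes that rose, Phactr1 encodes a protein that binds actin and protein phosphatase 1. It read 9.27, 9.36, 9.42 and 9.15 on DMI-labelled arrays and 8.77, 8.70, 8.69 and 8.72 on saline-labelled arrays, a rise of 0.58 ± 0.07 (SE, limma adjusted p = 0.00161). The lowest DMI-labelled array lay above the highest saline-labelled one. Crhbp, which binds and inactivates corticotropin-releasing hormone and marks a set of interneurons, read 9.56 to 9.93 against 8.90 to 9.02. It rose by 0.79 ± 0.12 (limma adjusted p = 0.00918) and passed in 7 of the 8 fits with an array left out.

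Fcer1g, the signalling chain that Fc receptors of microglia share, read 7.60, 8.01, 7.63 and 7.79 against 7.07, 7.32, 7.09 and 7.35, and rose by 0.55 ± 0.09 (SE, limma adjusted p = 0.0184). It was the only called gene of 18 detected microglia markers, beside 0.14% of all detected genes called higher. Of the 18, 14 were higher, with a median of 0.06. Their summed signals were 5610 to 6100 on DMI-labelled and 5310 to 5820 on saline-labelled arrays. Tctn3, a protein of the ciliary transition zone, rose on both of its called probes. The brighter read 7.24 to 7.81 against 6.94 to 7.08, and the other was detected on 4 DMI-labelled and 1 saline-labelled array. Of the 38 detected genes of cilium and transition zone 27 were lower, and no other member passed, beside 0.14% of all detected genes called higher.

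Smaller rises included regulators of signalling. Plk2, a kinase induced by synaptic activity, rose by 0.50 ± 0.10 (SE, limma adjusted p = 0.035), and Dusp7, a phosphatase of ERK, by 0.49 ± 0.10 (limma adjusted p = 0.0401). Each passed in 1 of the 8 fits with an array left out. Pde1a, a calcium-dependent phosphodiesterase of cyclic nucleotides, read 8.45 to 8.75 against 7.99 to 8.37 and rose by 0.42 ± 0.08. Its other 2 detected probes were higher by 0.35 and 0.36 and did not pass. Nectin3, an adhesion molecule of hippocampal synapses, and Inka2, an inhibitor of a p21-activated kinase, each rose by 0.29 ± 0.05. Zfp35, Gdpd3, Ypel4 and Dhrs7b rose by 0.43, 0.34, 0.32 and 0.30.

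The falls within 0.5 held a group of matrix and vessel genes. Timp2 and Timp3, inhibitors of metalloproteinases, read 9.89 to 10.03 against 10.31 to 10.58 and 9.28 to 9.51 against 9.82 to 9.90. They fell by 0.50 ± 0.10 and 0.48 ± 0.09 (limma adjusted p = 0.0374 and 0.0292), and neither passed in any fit with an array left out. Bgn, the proteoglycan biglycan, fell by 0.40 ± 0.07, Ltbp3, which holds latent TGF-beta in the matrix, by 0.42 ± 0.08, and Tgfbi, a matrix protein induced by that factor, by 0.41 ± 0.08. Of 54 detected genes of collagens, laminins and matrix 44 were lower and 10 higher, with a median of -0.108, where 49.9% of all detected genes were higher and their median was -0.000257. At an unadjusted p under 0.05, 19 were lower and 2 higher, beside 8.86% and 6.01% of the detected genes. At the adjusted threshold 3 passed, Bgn, Timp2 and Timp3, where 0.583% of detected genes were lower and 0.14% higher.

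Esam, an adhesion molecule of endothelial junctions, read 8.47 to 8.68 against 8.84 to 9.01 and fell by 0.34 ± 0.07 (SE, limma adjusted p = 0.0401). F2r, the thrombin receptor, fell by 0.39 ± 0.08 and Gpx3, a secreted glutathione peroxidase, by 0.38 ± 0.07. Of 15 endothelial markers detected 14 were lower, with a median of -0.176. At an unadjusted p under 0.05 8 were lower, and 1, Esam, at the adjusted one, beside 8.86% and 0.583% of all detected genes. Their summed signal ran from 5420 to 6070 on DMI-labelled and from 6530 to 7000 on saline-labelled arrays. Acta2, smooth muscle actin, was lower by 0.94 and did not pass (limma adjusted p = 0.169).

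Other falls were in genes of glia and of metabolism. Plekhb1, on the oligodendrocyte list, read 11.64 to 11.85 against 12.07 to 12.38 and fell by 0.52 ± 0.09 (SE, limma adjusted p = 0.0177). Slc7a11, which exports glutamate for cystine in astrocytes, read 7.67 to 7.92 against 8.13 to 8.16 and fell by 0.38 ± 0.06 (limma adjusted p = 0.0169). Ddah1, which breaks down an inhibitor of nitric oxide synthase, fell by 0.32 ± 0.05 and passed in 6 of the 8 fits with an array left out. Of the oligodendrocyte genes 19 of 22 were lower, 4 of them called, and of the astrocyte genes 15 of 18, 1 of them called. Of all detected genes 50.1% were lower and 0.583% were called lower. Summed signals of the oligodendrocyte genes were 41400 to 45900 on DMI-labelled and 52600 to 56800 on saline-labelled arrays.

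Markers chosen for the tissue's own neurons were detected for 12 of 14 CA1, 16 of 19 CA3 and CA2, and 9 of 12 dentate genes with a probe. Markers of tissue that borders the hippocampus moved with the same labels. Their lists were chosen with earlier results of these data known, so that their counts are given as a description. All 33 detected genes of the thalamus and habenula list were lower on DMI-labelled arrays, 30 at an unadjusted p under 0.05 (8.86% of all detected genes), with a median of -0.635, and 5 of its 38 genes with a probe were not detected. The summed signal of the 33 ran from 8350 to 10800 on DMI-labelled arrays, from 15400 to 15900 on saline-labelled arrays, and from 7470 to 14400 over both LA groups. Zfhx3, a transcription factor of this list, read 7.13 to 7.20 against 7.73 to 7.83, and Syt9, a vesicle calcium sensor, 6.95 to 7.66 against 7.96 to 8.08. Ramp3, a partner of the calcitonin receptor, fell by 0.45 ± 0.08 (SE, limma adjusted p = 0.0292). All 23 detected genes of leptomeninges were lower too (median -0.196), and 20 of 21 of choroid plexus (median -0.135). Lbp, which binds bacterial lipopolysaccharide and is on the choroid plexus list, fell by 0.50 ± 0.09. Choroid plexus sums were 30300 to 33700 on DMI-labelled and 35500 to 37300 on saline-labelled arrays. Of the 61 named genes that fell, 17 are on the lists of cells other than hippocampal neurons, 8 of them on the thalamus list. Of the 16 that rose, 1 is on such a list. The share of all detected genes on these lists was not counted, so nothing is read from these counts. The part of these cells in the other falls was not tested.

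Genes of inhibition and excitability were also among the falls. Glra2, a glycine receptor subunit, read 7.30 to 7.51 against 7.66 to 7.86 and fell by 0.42 ± 0.07 (SE, limma adjusted p = 0.0177). It was the only called member of 9 detected GABA and glycine receptor genes, 8 of which were lower (median -0.0753). Of all detected genes 0.583% were called lower. Kcnj9, a potassium channel subunit opened by G proteins, read 7.03 to 7.22 against 7.44 to 7.68 and fell by 0.45 ± 0.09, the only call among 49 potassium channel genes, of which 24 were higher and 25 lower. Cacng5, an auxiliary subunit of AMPA receptors, fell on its 2 called probes by 0.34 ± 0.06 and 0.24 ± 0.05. Hap1, which links huntingtin to transport, fell by 0.40 ± 0.08 and Rcan3, a regulator of calcineurin, by 0.43 ± 0.08.

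Ctnnb1 and Ctnna1, the beta and alpha catenins that tie cadherins to actin, fell by 0.37 ± 0.07 and 0.32 ± 0.06 (SE, limma adjusted p = 0.0422 and 0.0389). Ctnnb1 read 11.02 to 11.31 against 11.49 to 11.61. A second probe of Ctnnb1 was lower by 0.13 and did not pass. Of 31 genes of Wnt signalling, in which beta-catenin acts with Tcf7l2, 17 were lower and 14 higher (median -0.0366). Ctnnb1 and Tcf7l2 were the 2 called lower, beside 0.583% of all detected genes. Tcf7l2 was counted above among the thalamus markers too, where all 33 detected genes were lower. Whether its fall belongs with Wnt signalling or with those markers was not tested. Gjb2, a gap junction protein of the meninges, fell by 0.39 ± 0.08, and Rgma, a repulsive guidance molecule, by 0.37 ± 0.07.

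Dbp, a transcription factor driven by the circadian clock, read 10.62, 10.65, 10.51 and 10.55 against 11.21, 11.10, 11.04 and 10.90 and fell by 0.48 ± 0.08 (SE, limma adjusted p = 0.0234). Of 19 clock genes it alone passed, beside 0.583% of all detected genes called lower. Of the 19, 9 were higher and 10 lower. Cdr2, a coiled-coil protein, fell by 0.48 ± 0.09. Kmt5c, which methylates histone H4, fell by 0.36 ± 0.07. Hnrnpm, a splicing regulator, fell by 0.29 ± 0.06, and its other 2 detected probes were lower by 0.15 and 0.16 without passing. Of 69 splicing factors 31 were higher and 38 lower (median -0.00743). Snapc3, of the complex that starts transcription of small nuclear RNAs, fell by 0.26 ± 0.05 on its called probe and was higher by 0.13 on another.

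Immediate early genes were higher on the DMI-labelled arrays. Of 23 detected members 19 were higher, 12 at an unadjusted p under 0.05 and none lower at that p, with a median of 0.178. Of all detected genes 6.01% were higher and 8.86% lower at that p. Plk2 alone passed the adjusted threshold. For 7 members the arrays of the labels did not overlap, all 7 higher, beside 3.03% of detected genes higher and 6.36% lower without overlap. The list's mean level lay between 0.0336 and 0.0786 on DMI-labelled arrays and between -0.181 and -0.132 on saline-labelled arrays, each gene centred over the 16 arrays. The median stayed between 0.153 and 0.293 over all settings and arrays left out.

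Arc, whose protein shapes AMPA receptor traffic at active synapses, read 9.02, 9.61, 9.34 and 9.03 on DMI-labelled and 8.32, 8.47, 8.40 and 8.63 on saline-labelled arrays. It was higher by 0.80 ± 0.18 (SE, limma adjusted p = 0.078) and did not pass. Plk2 read 9.59, 9.70, 9.71 and 9.51 against 9.04, 9.10, 9.13 and 9.24. Junb, an AP-1 subunit, read 8.32 to 8.43 against 7.66 to 8.03, and Egr4, a zinc finger factor, 9.77 to 9.96 against 9.18 to 9.55. Dusp6, which dephosphorylates ERK, Fos and Egr2 were higher without overlap too, by 0.39, 0.39 and 0.21. Not every member followed: Fosb and Nptx2 differed by 0.03 and 0.02, and Jund and Rheb by -0.07 and -0.08.

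In the LA line 11 of the same 23 genes were higher and 12 lower, with a median of -0.00333. For Arc the group means were 9.41 in LA DMI and 9.44 in LA saline, near the HA DMI arrays and above all HA saline arrays. The HA saline mean was the lowest of the 4 groups for 15 of the 23, against 24.9% of all detected genes. The difference between the lines had an unadjusted p under 0.05 for 10 of them, against 11.5% of detected genes, and none passed adjustment.

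**Figure D3:**
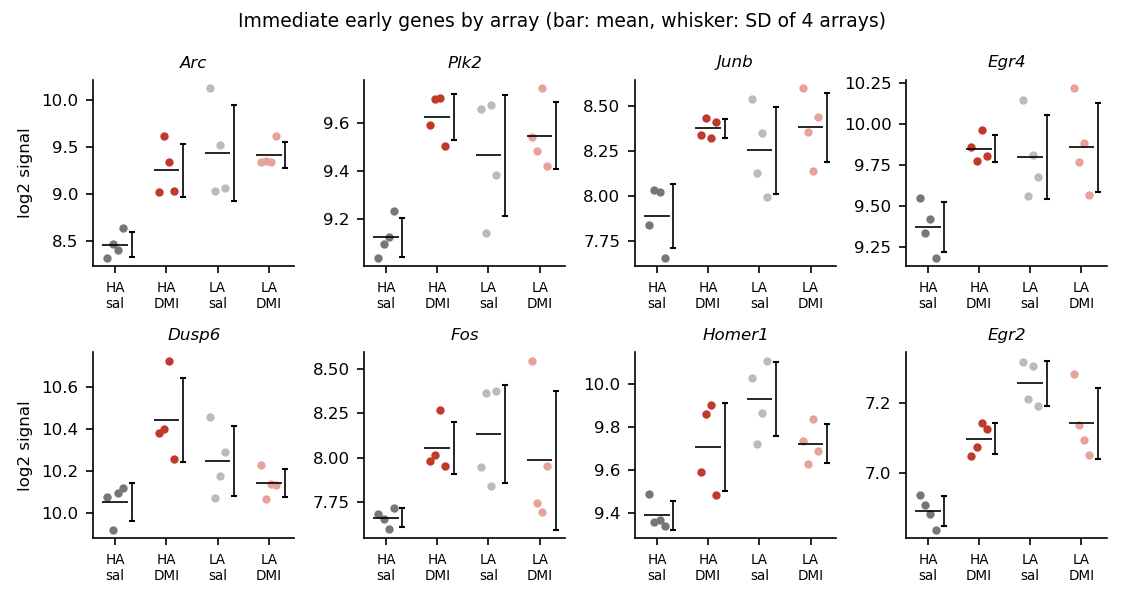
Log2 signal of each array for 8 immediate early genes in HA saline, HA DMI, LA saline and LA DMI, with the mean of 4 arrays (bar) and its SD (whisker). For Arc, Egr4 and Egr2 the 4 HA saline arrays lie below every array of the other groups, as for Arc at 8.32 to 8.63.

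Plk2 and Egr2 are shown with their promoters because they are members of this group whose windows hold elements read by activity-driven factors. The windows are from RefSeq on GRCm38.p6, 300 bases each, on the plus strand and ending shortly after the annotated start. Capitals mark the cAMP response element TGACGTCA, its core TGACG on either strand (the longer element contains the core) and the CArG box, the motif of serum response factor. Plk2 is at chr13:110394794-110395093 and Egr2 at chr10:67537619-67537918.
Plk2: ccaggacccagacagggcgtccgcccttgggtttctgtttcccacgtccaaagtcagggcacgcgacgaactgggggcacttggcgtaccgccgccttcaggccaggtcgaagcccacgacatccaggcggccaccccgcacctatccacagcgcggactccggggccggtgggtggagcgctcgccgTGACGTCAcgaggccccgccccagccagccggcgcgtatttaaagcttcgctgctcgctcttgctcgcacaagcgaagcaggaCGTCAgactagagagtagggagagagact
Egr2: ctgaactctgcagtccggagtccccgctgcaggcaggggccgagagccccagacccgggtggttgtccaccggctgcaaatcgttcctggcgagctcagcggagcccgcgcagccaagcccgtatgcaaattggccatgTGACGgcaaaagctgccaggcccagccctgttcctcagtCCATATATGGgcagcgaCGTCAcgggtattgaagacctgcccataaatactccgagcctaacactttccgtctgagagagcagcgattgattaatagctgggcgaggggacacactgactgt
The Plk2 window holds 1 full element and the Egr2 window a CArG box with 2 cores. The core was found for 15 of the 20 immediate early genes with a window, for 10 of 15 genes called higher, for 15 of 47 called lower, and for 35.4% of detected genes and 23% of all genes with a window. The full element was found for 2 of 20, 2 of 15 and 1 of 47, and for 3.58% and 2.03%. A CArG box was found for 1 of 20, 0 of 15 and 1 of 47, and for 1.7% and 1.81%. A gene counts where any of its windows holds the letters, and no binding was measured.

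Markers of CA1 pyramidal cells, the output neurons of the hippocampus proper, were higher as well. Of 12 detected genes 11 were higher, 4 at an unadjusted p under 0.05 (6.01% of all detected genes), with a median of 0.284. For 7 of the 12 the arrays did not overlap, all 7 higher (3.03% of all detected genes). None passed adjustment. Spink8 read 10.43 to 10.79 on DMI-labelled and 9.79 to 10.11 on saline-labelled arrays and was higher by 0.64 ± 0.16 (SE, limma adjusted p = 0.106). Wfs1, a membrane protein of the endoplasmic reticulum that marks CA1, read 9.14 to 9.53 against 8.91 to 9.12. The summed signal of the 12 ran from 15100 to 16200 against 12600 to 13300, and from 10900 to 16000 over the LA arrays. Of 9 dentate granule genes 6 were lower (median -0.0566), and of 16 CA3 and CA2 genes 9 were higher (median 0.0141).

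Of 18 detected genes of ionotropic receptors and their auxiliary subunits 16 were higher, with a median of 0.0515, and of 18 metabotropic receptors and scaffolds 14 were higher, with a median of 0.115. Higher at an unadjusted p under 0.05 were 4 in each list (22.2%), beside 6.01% of all detected genes. The only called gene of either list was Cacng5, which fell, beside 0.583% of all detected genes called lower. Gria3, an AMPA receptor subunit, read 7.66 to 7.81 against 7.29 to 7.55, and Camk2a, the calcium-dependent kinase of the postsynaptic density, 12.01 to 12.14 against 11.71 to 11.87. Their differences were 0.30 ± 0.08 and 0.29 ± 0.10 (SE), with limma adjusted p-values of 0.11 and 0.312. Cplx2, which clamps vesicle fusion, was higher by 0.59 ± 0.15 (limma adjusted p = 0.107). Among the 45 detected genes of vesicle release 24 were higher and 21 lower.

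Genes of interneurons split. Cort, the gene of cortistatin, read 7.35 to 7.71 against 7.08 to 7.22 and was higher by 0.39 ± 0.08 (SE, limma adjusted p = 0.0552). Sst and Npy, the genes of somatostatin and neuropeptide Y, were higher by 0.41 ± 0.10 and 0.57 ± 0.17, and their arrays overlapped between the labels. Calb2, calretinin, which thalamic midline neurons express too, was lower by 0.92 ± 0.26. Of 17 interneuron genes 11 were higher and 6 lower (median 0.088). Crhbp was the only call, beside 0.14% of all detected genes called higher.

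In the lists nearest to the drug's known target, called genes were found only for cAMP and CREB signalling. Of 12 genes of noradrenaline and adrenergic signalling with a probe 5 were detected, 2 higher and 3 lower, and none passed. At an unadjusted p under 0.05, 2 of the 5 were lower, beside 8.86% of all detected genes. Maob and Ddc, enzymes that degrade and make monoamines, were lower by 0.24 ± 0.07 and 0.19 ± 0.07 (SE, limma adjusted p = 0.207 and 0.373). Of 10 detected genes of serotonin and dopamine receptors and synthesis 9 were higher with a median of 0.0591, and none passed. Here 2 were higher at an unadjusted p under 0.05, beside 6.01% of all detected genes. Of 32 genes of cAMP and CREB signalling 19 were higher and 13 lower (median 0.00911). At an unadjusted p under 0.05, 4 were higher and 3 lower (12.5% and 9.38%). Of all detected genes 0.14% were called higher and 0.583% lower. Pde1a of this list passed on 1 probe, as given above. Akap12, which anchors protein kinase A, fell by 0.51 ± 0.09 (limma adjusted p = 0.0234), and Adcy8, an adenylyl cyclase, was lower by 0.44 ± 0.10 (limma adjusted p = 0.0592).

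On the stress axis Crhbp was again the only call among 17 detected genes, 13 of them higher (median 0.0718). Of all detected genes 0.14% were called higher. Adcyap1, the gene of the peptide PACAP, was lower by 0.37 ± 0.09. Of the growth factor genes 19 of 29 were lower, led by Igfbp2 and Igf2 at -0.40 and -0.58, both also on the choroid plexus list, and none passed. Among genes of MHC class I, complement and interferon response 8 of 29 were lower and 2 higher at an unadjusted p under 0.05. These are 27.6% and 6.9%, beside 8.86% and 6.01% of all detected genes. Cd59a and Ifit3 were lower by 0.45 and 0.46, and none passed.

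Housekeeping groups moved little. Of 78 genes of the respiratory chain 64 were higher, with a median of 0.0811, yet only 2 had an unadjusted p under 0.05, and the list's mean level overlapped between the labels (-0.0916 to 0.179 on DMI-labelled, -0.143 to 0.14 on saline-labelled arrays). Of 54 cytosolic ribosomal proteins 39 were higher (median 0.0498, and -0.000573 without saline-labelled array 1) and of 40 proteasome genes 28 (median 0.0525). Genes of cholesterol synthesis, chaperones and autophagy had medians of 0.017, 0.00295 and 0.00637. Over all 55 lists 28 medians were below 0 and 27 above, from -0.635 for thalamus and habenula to 0.284 for CA1.

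**Figure D4:**
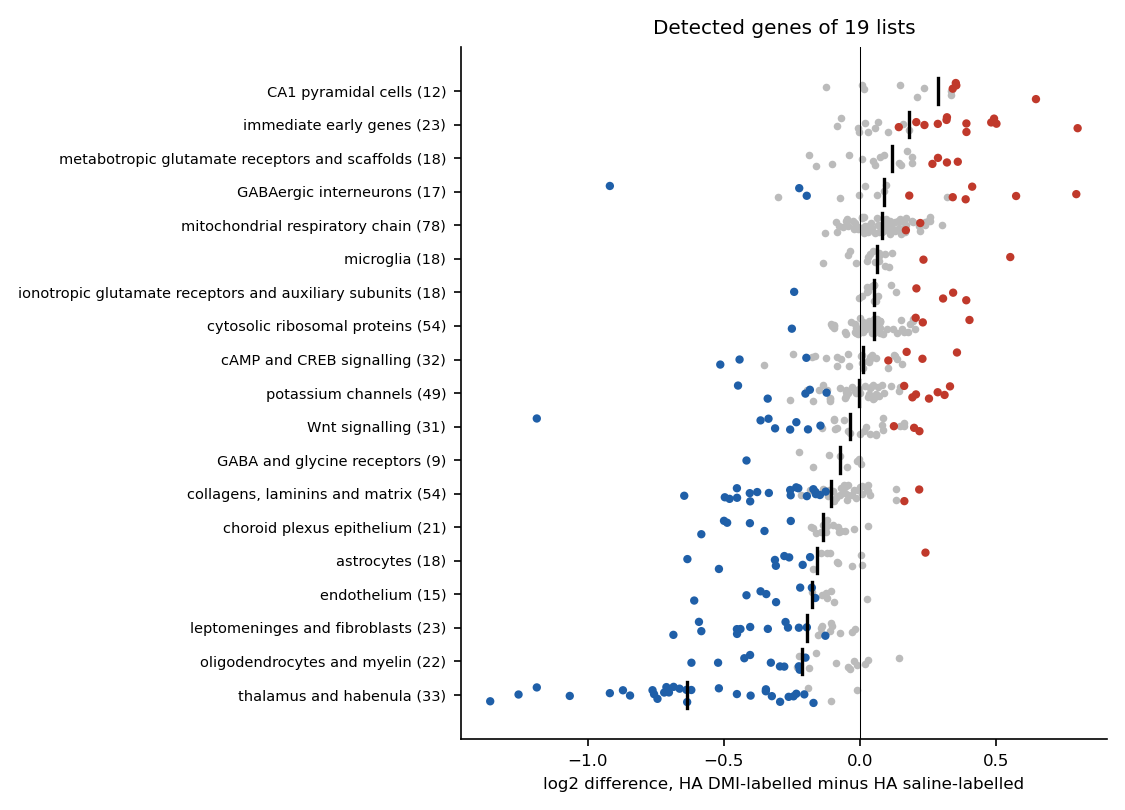
Log2 difference in HA (DMI-labelled minus saline-labelled) of each detected gene of 19 lists, with the number of genes after each name. Coloured points have an unadjusted p under 0.05, red higher and blue lower, and the vertical bar is the list's median, from -0.635 (thalamus and habenula) to 0.284 (CA1 pyramidal cells).

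In the LA line, with DMI-labelled and saline-labelled arrays of its own, the median size of the difference was 0.0849 at the 84 probes called in HA and 0.0652 over all detected probes. The 84 were chosen by their HA difference, so a smaller size in LA, or a difference between the lines, is expected from the choice and is given as a description. None of the 84 was among the 16 probes called in LA (0.0623% of all probes). Of the 65 that fell in HA 45 were lower in LA, and of the 19 that rose 13 were higher. The difference between the lines itself passed for 1 probe, 0.00389% of those tested. It was Phactr1, where HA minus LA was 0.82 (limma adjusted p = 0.00489): group means were 9.13 in LA DMI and 9.37 in LA saline, a difference of -0.24 that did not pass.

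The difference between the lines had an unadjusted p under 0.05 for 75 of the 84, beside 6.97% of all probes, and nothing is read from this count because of the same choice. Those with the smallest such p after Phactr1 were Zfp35, Arhgap24, Tmem145 and Fmo1. Tmem145 read 7.84 to 7.91 in HA DMI and 8.29 to 8.48 in HA saline, and differed by 0.14 in LA. Crhbp was higher in LA too, by 0.49, and Timp2 lower by 0.42 there, neither past adjustment in LA. The HA saline mean was the highest or lowest of the 4 groups for 70 of the 84, the HA DMI mean for 48, where 50.4% and 50.1% of all detected probes had these groups at an end. HA saline was the highest for 58 of the 65 falls and the lowest for 12 of the 19 rises. These counts are over probes chosen by the HA difference too.

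**Figure D5:**
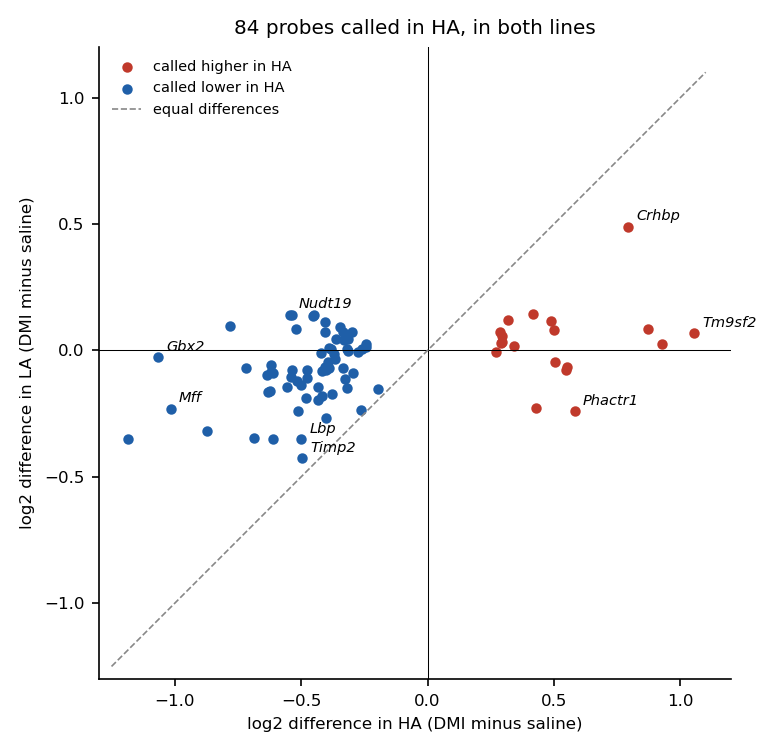
Log2 difference of the 84 probes called in HA, in HA (horizontal) and in LA (vertical), DMI-labelled minus saline-labelled. Red points rose and blue points fell in HA. Most lie near 0 in LA, as their median size of 0.0849 there says, and Crhbp and Timp2 are the called probes farthest from 0 in LA at 0.49 and -0.42.

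Several probes of a gene could be set side by side for 31 genes with a called probe. Of these 5, Cacng5, Igsf1, Slc7a14, Tcf7l2 and Tctn3, had more than 1 called probe. Among the 39 other detected probes that were not called 35 had the sign of the called probe, 17 of them at an unadjusted p under 0.05, and 4 had the opposite sign, none at that p. Zfhx3 and Nudt19, a coenzyme A hydrolase, were lower on a second probe by 0.74 and 0.29. For Tm9sf2, the largest rise, the 2 other detected probes differed by -0.08 and -0.05, where the called probe read 7.53 to 8.16 against 6.67 to 6.81. Whether such probes target different transcripts of a gene was not tested.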

How the data were processed

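Hippocampal RNA was measured on Illumina MouseRef-8 BeadChips, a 1-colour array of bead probes. The deposited log2 values were made by the authors in R by log2 transformation and quantile normalization over 16 arrays, with no background subtraction named. The deposited intensity table holds the same signals before normalization, and the deposited detection p-value of each probe compares it with the negative controls of its array. The log2 values recomputed from the intensities differed from the deposited ones by at most 0.0456. The number of arrays limits the precision.

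Group means were fitted to all 16 arrays in limma 3.58.1 (R 4.3.3), as lmFit and eBayes, and p-values were adjusted by Benjamini-Hochberg over 25697 probes. The authors' own comparisons were not used. In data simulated for this comparison with 25697 probes, 99 of 100 changes of 1 and 92 of 100 of 0.5 were recovered, with 13 false calls. The changes were set in probes drawn from all 25697, detected or not, under independent normal noise. Recovery among detected probes alone was not measured. A platform annotation named 23978 probes and 2 more were named from the study's probe list. No probe had several genes.

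For the 55 gene lists a gene was represented by its brightest probe detected on at least 4 of 8 HA arrays. List medians, counts and backgrounds are descriptions without a test, and 1 list is not reported here. The genes and lists were chosen with earlier results of these data known. Genes named were the largest rises and falls within 0.5, called probes beyond 0.5, list members of smallest p, other probes of these genes, and the smallest p of the line difference. Other called genes in the text were picked with their values in view. The labels do not tell whether arrays are separate animals or extracts, so p-values measure the spread between these arrays. Alternatives covered the values, normalization, background, low signals, arrays in the fit, weights, prior, replicate number and each HA array left out.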

Additional observations from a re-analysis of the deposited data

Results flagged for a closer look

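In 10 of 168 probe groups of 4 arrays among the called probes, a single array lay far from the other 3 by Dixon's test, where chance gives about 1 in 20. Among HA DMI arrays, Igsf1 was 7.64 on array 3 (others 7.91 to 7.96), Lbp 7.22 on array 4 (7.60 to 7.65), Glra2 7.51 on array 1 (7.30), Olig1 11.28 on array 2 (11.52 to 11.54), F2r 7.75 on array 4 (7.88 to 7.91) and Cacng5 7.70 on array 4 (7.54 to 7.57). Among HA saline arrays, Akap12 was 8.002 on array 4 (7.77 to 7.79), Ctnna1 10.57 on array 4 (10.40 to 10.42), Hnrnpm 10.25 on array 2 (10.14 to 10.15) and Gdpd3 6.80 on array 2 (7.04 to 7.07).

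For 7 of 108 list and group pairs the mean centred log2 level of a list had such an array. On HA DMI array 2 it was -0.0715 for leptomeninges (others -0.14 to -0.132) and 0.0111 for the circadian clock (-0.0471 to -0.0383). On HA DMI array 4 it was -0.0900 for axon guidance (-0.0361 to -0.0263), -0.0414 for Wnt signalling (-0.0184 to -0.0157) and -0.0242 for actin and PP1 regulators (0.0175 to 0.0212). On HA saline array 2 it was 0.0963 for neural progenitors (0.085 to 0.0854). On HA saline array 4 it was -0.00652 for the unfolded protein response (0.0697 to 0.0772).

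Phactr1 differed between the lines, with an HA effect minus LA effect of 0.82 on the log2 scale (limma adjusted p = 0.00489). All 4 HA saline arrays lay below the other 12 arrays.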

How the results depend on the processing

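All 84 probes kept their sign under every setting that tested them. Of 55 list medians 20, none over 0.0551 in size, had the other sign under at least 1 setting. Against 84 calls in HA, and 31 beyond 0.5, a common median gave 4 and 4, background subtraction 41 in all (14 higher and 27 lower, 34 of them shared), the 8 HA arrays alone 343 and 64, array weights 272 and 54, a trended prior 133 and 63, and an unadjusted p 2203 and 71. Among probes detected on all 8 arrays 49 passed beyond 0.5. With the HA saline arrays averaged into 1 sample, which leaves fewer samples, limma called 0 and 0 (405 and 56 at an unadjusted p under 0.05). Leaving out an HA array gave 10 to 49 calls, and 7 to 27 beyond 0.5.

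For LA (16 calls) and for the difference between the lines (1 call) the same settings were chosen after seeing the data. LA counts were 2 with a common median, 7 with background subtraction, 9 with weights and 26 with a trended prior. They were 4 with a replicate block and 5 to 10 without an HA array. No LA array was left out in any fit. For the line difference the counts were 0 with a common median (781 unadjusted), 3 with background subtraction and 17 with a trended prior. They were 2 among probes detected on at least 4 or all 8 arrays, 2 with a replicate block, and 1 to 2 without an HA array. Except where named, the cause was not tested.

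The replicate numbers did not pair the arrays: same-numbered deviations correlated at -0.12, 0.0412, 0.128 and -0.183. With a replicate block 78 probes were called, 59 of them shared, and 27 beyond 0.5. A slide block was not run, as no source used here gives slides. Signals near the negative controls limit dim probes such as that of Mff.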
